A study of Homo sapiens with 17 samples.

Results

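Translation efficiency (TE) in proliferating human fibroblasts was described for the 7321 transcripts, of 9699 in the table, that had an RNA-Seq level of at least 5 FPKM in both sequencer runs of the proliferating cells (75.5% of the table). FPKM is the number of fragments scaled to transcript length and library size. Coding lengths were not at hand, so any part of length in the values below, which this scaling may leave, was not tested. TE is the log2 level of ribosome-protected fragments (Ribo-Seq) over the coding sequence minus the log2 level of the mRNA (RNA-Seq) in the same run, and each run was centred on its own median over the 7321 transcripts. A TE of 0 is therefore the median transcript, and a TE of 1 means 2-fold more footprints per mRNA than the median. Transcripts just inside the minimum were AC006465.3, at 5.0 and 6.04 FPKM in runs 1 and 2, and just outside it VANGL1, at 4.99 FPKM in its lower run.

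The cells were BJ fibroblasts, a human foreskin fibroblast strain, immortalized with hTERT (the catalytic subunit of telomerase) and grown in serum-containing medium under normal conditions, with no further treatment named for them. Run 1 held 2 proliferating samples for each assay, deposited as a pooled column (C12), and run 2 held 1 (C3), so each run gives 1 TE value per transcript. The same table holds serum-depleted quiescent cells (Q), cells with a tamoxifen-inducible RASG12V switched on for 5 days (preS) or 14 days (S), and cells transformed by RASG12V with stable knockdown of p53 and p16INK4A (Tr), to which the study's methods add SV40 small-T. The cells are of 1 strain. The study's methods call samples of the same run biological replicates, and the labels do not say how their cultures were kept apart.

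The Ribo-Seq libraries titled C3.rp and S.rp carry each other's condition label, and they were taken here by title. All 11 proliferation markers in the table, among them MKI67 and CCNB1, were higher in C3.rp than in S.rp, by 3.94- to 71.1-fold (median 26.8-fold), and 4 were at the deposited floor of 1 FPKM in S.rp. The TE of a transcript is given for run 1 and run 2 apart wherever both are printed, and its run 1 value stands without C3.rp. High and low calls, and medians of smaller groups, use both runs. Medians of gene lists are over the mean of both runs, with the run medians after them in parentheses, run 1 first. In run 1 alone 29 of 31 list medians kept their side of the median, the exceptions being tubulins and NF-kB genes. The table held all 12 fibroblast markers looked for, such as COL1A1 and VIM, with a summed RNA-Seq level of 8090 FPKM in run 1 and 10370 in run 2. None of 5 endothelial markers had a row, CD14 was the 1 of 5 leukocyte markers with a row and lay at 1.0 and 1.43 FPKM in RNA-Seq, and 3 of 7 epithelial markers were in the table (KRT8, KRT18 and KRT19, with a summed RNA-Seq level of 197.5 FPKM in run 1 and 312.6 in run 2). The defining epithelial markers EPCAM and CDH1 had no row. KRT19 was at 1.0 FPKM in run 1 and 39.76 in run 2. Their part in the TE values was not tested.

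Ribosome profiling sequences the stretch of mRNA that a translating ribosome shields from nuclease, so the footprints on a coding sequence, set against the amount of its mRNA, give the average number of ribosomes each mRNA carries per unit length. Known features that set this number are the structure and length of the leader, upstream open reading frames (uORFs) that capture scanning ribosomes, and sequence tracts such as the 5′ terminal oligopyrimidine (TOP) tract of ribosomal protein mRNAs, which ties their translation to growth signals. TE is relative: a common change in the translation of all mRNAs does not appear in it, and a slow ribosome adds footprints as well as a frequently loaded mRNA does.

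TE spanned a wide range within this single cell state. From the 5th to the 95th percentile it ran from -2.03 to 1.58 in run 1 and from -1.96 to 1.57 in run 2, which is a 12.2-fold and an 11.6-fold span. Both runs agreed closely in it: across transcripts, which are not independent replicates, Pearson's r was 0.871 and Spearman's rank correlation 0.870, and 85.3% of transcripts lay on the same side of the median. The SD between runs was 0.40 on the log2 scale, or 1.32-fold, against an SD over transcripts of 1.12 in run 1 and 1.09 in run 2. The scatter of a TE value between runs was therefore well below the differences among transcripts at both ends, though not among those close to the median. A bias that both runs share does not enter this SD. The median difference between runs was 0.31, and 6.84% of transcripts differed by more than 2-fold and 48 of them by more than 4-fold.

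With 1 value per run no test across transcripts was made, and a transcript was called high or low when it lay at least 2-fold from the median in the same direction in both runs. By this rule 734 transcripts, 10.0% of the 7321, were high and 972, 13.3%, were low. In run 1 alone 1061 were at least 2-fold above and 1380 at least 2-fold below the median, and in run 2 alone 1000 and 1295. The shared set was thus 69.2% of the run 1 and 73.4% of the run 2 transcripts above the median by this much, and 70.4% and 75.1% of those below. Only 6 transcripts were past 2-fold in opposite directions. Of the 732 transcripts in the top decile of run 1, 509 (69.5%) were in the top decile of run 2, and 502 (68.6%) of the bottom decile were shared. The 50 highest of run 1 had a median TE of 3.07 in run 1 and 2.93 in run 2, with 48 of them past 2-fold in run 2; the 50 lowest had -3.61 and -2.70, with 47 past 2-fold. At the high threshold NDUFB7 lay just inside, with a TE of 1.00 in run 1 and 1.43 in run 2, and GLRX5 just outside, with 0.999 and 1.24.

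High and low were defined by Ribo-Seq over RNA-Seq, so the rule itself fixes that high transcripts hold more of the footprints than of the mRNA and low ones less; the sizes are given as a description. They made up 12.7% of the 7321 transcripts' summed RNA-Seq FPKM and 30.1% of their Ribo-Seq FPKM in run 1, and 14.3% and 33.2% in run 2. The low transcripts made up 7.85% of the RNA-Seq and 1.56% of the Ribo-Seq FPKM in run 1, and 7.31% and 1.40% in run 2. The median RNA-Seq level was 23.9 FPKM for high and 16.5 for low transcripts in run 1, and the median Ribo-Seq level 107 and 6.19 FPKM. In run 2 these medians were 25.2 and 15.1 FPKM in RNA-Seq and 107.9 and 6.03 FPKM in Ribo-Seq.

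TE was only weakly related to the mRNA level. Taken with the RNA-Seq level of the other run, so that an error in the RNA value does not enter both sides, Pearson's r was 0.210 for the TE of run 1 and 0.165 for that of run 2. The median TE was -0.28 for the 1516 transcripts of 5 to 10 FPKM, -0.14 for 2269 of 10 to 20, 0.03 for 2099 of 20 to 50, and 0.35 for 1437 of 50 FPKM or more. The share of low transcripts was 15.1% in the lowest of these bins and 6.12% in the highest. The SD between runs fell in step, from 0.473 to 0.329, so TE was more repeatable between runs for abundant mRNAs.

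The highest TE of all was that of HIST1H2AC (ENST00000314088), a core histone H2A. Its RNA-Seq level was 9.5 FPKM in run 1 and 14.8 in run 2, and its Ribo-Seq level 957.49 and 844.39 FPKM. This placed it 6.23 and 5.39 above the median, or 56.1-fold on average. HIST1H1C (ENST00000343677), a linker histone, followed with 19.96 and 10.98 FPKM in RNA-Seq against 815.55 and 644.53 in Ribo-Seq, a TE of 4.93 and 5.43. HIST1H2BJ, a core histone H2B, had a TE of 3.31 and 5.02, which differ by 3.26-fold between runs.

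Other genes at the top were mostly small proteins of the mitochondrion and the ribosome. ATP5E, the epsilon subunit of ATP synthase, had 30.67 and 24.53 FPKM in RNA-Seq and 504.54 and 929.26 in Ribo-Seq, a TE of 3.62 and 4.80. MINOS1, a subunit of the inner membrane complex that shapes the cristae, had a TE of 3.94 and 4.10. CYCS, cytochrome c, had a TE of 3.19 and 3.80, and MRPS21, a mitochondrial ribosomal protein, of 3.60 and 3.31. RPL37 and RPL37A, proteins of the large cytosolic subunit, reached 4.03 and 4.29 for the first and 3.93 and 3.95 for the second. The remaining 3 of the 12 highest were C15orf63 (4.01 and 4.47), ENY2, a subunit shared by the SAGA coactivator and an mRNA export complex (3.68 and 3.99), and GNG10, a G protein gamma subunit (3.0 and 3.83). In all 12 the Ribo-Seq level exceeded the RNA-Seq level in both runs, which follows from the rule that made them high.

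The lowest TE above the floor was that of B4GALT2 (ENST00000309519), a Golgi galactosyltransferase. Its mRNA was well expressed, at 82.66 FPKM in run 1 and 67.47 in run 2, while its Ribo-Seq level was 4.44 and 2.9 FPKM. Its TE of -4.64 and -4.99 places it 28.1-fold below the median. IRAK1, a kinase of interleukin-1 and Toll-like receptor signalling, had more mRNA still, 113.05 and 58.28 FPKM, with 11.97 and 5.04 FPKM in Ribo-Seq (TE -3.66 and -3.98). PKD1, which encodes polycystin-1, had 33.0 and 21.32 FPKM in RNA-Seq and 2.46 and 1.98 in Ribo-Seq (TE -4.17 and -3.87).

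The other 9 of the 12 lowest ranged from -4.51 (PALM2-AKAP2) to -3.62 (MLLT6) in mean TE. They were PALM2-AKAP2, KIAA1191, GPBP1L1, AGBL5, MAP3K11, ARNTL2, MBD6, AMZ2 and MLLT6. MAP3K11 is a kinase upstream of JNK, ARNTL2 a partner of the clock protein CLOCK, and MBD6 a protein with a methyl-CpG-binding type domain. KIAA1191 was the least steady of them, with -2.90 in run 1 and -5.60 in run 2, a 6.5-fold difference. The plot of levels shows that RNA-Seq levels overlapped between the 12 highest and the 12 lowest. No Ribo-Seq value of the lowest 12 reached any of the highest 12. Both sets were picked by Ribo-Seq over RNA-Seq, so a separation in Ribo-Seq goes with the choice and is a description only.

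**Figure D1:**
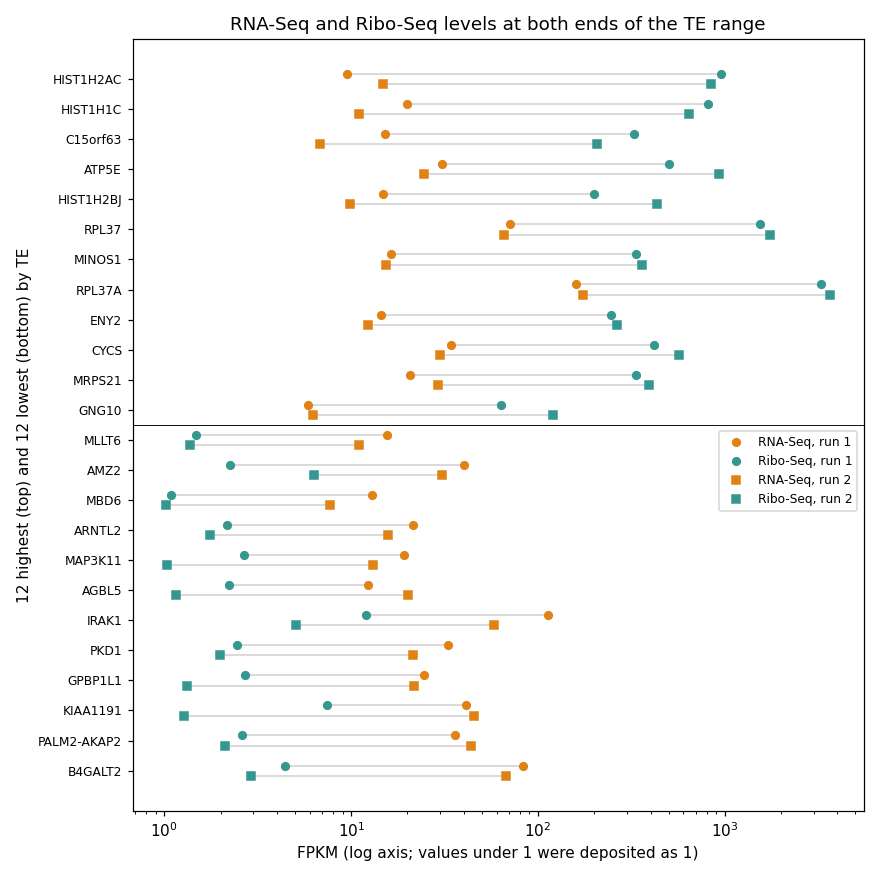
RNA-Seq (orange) and Ribo-Seq (green) FPKM on a log axis, for the 12 transcripts of highest and the 12 of lowest mean TE. They were taken among transcripts called high or low with Ribo-Seq above the floor in both runs. Circles are run 1 and squares run 2. RNA-Seq levels overlap between the sets. Ribo-Seq runs from 63.06 FPKM (GNG10, run 1) upward in the upper set and stays at or below 11.97 FPKM (IRAK1, run 1) in the lower set. The choice by TE favours this separation.

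In 22 of the 7321 transcripts the Ribo-Seq level was at the floor of 1 FPKM in 1 run (12 in run 1, 10 in run 2, none in both), where TE is an upper bound, and 20 of them were called low. The extreme was MTRNR2L8, named here after its values were seen, with 500.35 and 979.64 FPKM in RNA-Seq against 1.0 and 9.7 in Ribo-Seq. It is a near copy of the mitochondrial 16S rRNA gene, so its RNA-Seq reads cannot be assigned with certainty. Other genes also have near-identical copies, among them histone, tubulin and ribosomal protein genes. Reads that match more than 1 copy are left out of their values, since only reads with a unique position were counted.

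The gene lists used to describe families held 989 of the 7321 transcripts, including 173 of the 734 high and 66 of the 972 low. Of 32 lists, 31 had at least 1 transcript that met the minimum, and the median TE lay above 0 in 23 of them and below 0 in 8. The list of mitochondrially encoded proteins had no row in the table. The median over all transcripts is 0 by construction, and 10.0% high and 13.3% low is the background for every count below. This background is not matched to the mRNA level of a list. It was 7.85% high and 15.1% low for transcripts of 5 to 10 FPKM, and 13.8% high and 6.12% low for those of 50 FPKM or more. The choice of zero matters for lists near it: centring on the ratio of summed FPKM in place of the median lowers every TE by 0.53 in run 1 and 0.61 in run 2, and 11 list medians then lie above 0. Under that centring the 12 lists with a median from 0.10 (tubulins) to 0.53 (cytosolic ribosomal proteins) changed sign, while the lists from 0.60 upward and those below 0 did not.

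Replication-dependent histones had the highest list median, 4.67 (4.12, 5.2), with all 4 transcripts high. These 4 were the ones of 65 listed, 13 of them in the table, that reached the RNA-Seq minimum. The lowest of the 4, HIST1H2BK, had 25.76 and 39.66 FPKM in RNA-Seq and 155.63 and 375.9 in Ribo-Seq, a TE of 2.17 and 2.80. Most mRNAs of this class end in a stem-loop and lack a poly(A) tail, and the RNA-Seq libraries were made from poly(A)-selected RNA while the footprints were not selected. The part of this selection in their TE was not tested. Replacement histones, which are expressed outside S phase from ordinary polyadenylated mRNAs, had a median of 0.52 (0.47, 0.81) over 9 transcripts, with H2AFV high (1.54 and 1.85) and no other. H2AFZ had a TE of 0.64 and 1.34 and H3F3A of 0.73 and 1.51. The median of the replacement histones turned to -0.048 when centred on the ratio of sums.

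The enzymes that fold and modify secreted proteins in the ER were translated above the median nearly throughout, with 19 of 20 above it, 8 high and none low, and a median of 1.07 (1.10, 1.10). PDIA3, a disulphide isomerase, had 152.9 and 210.79 FPKM in RNA-Seq and 719.62 and 937.14 in Ribo-Seq (TE 1.81 and 1.71). HSPA5, the main ER chaperone, had a TE of 1.48 and 1.76, and CALR, calreticulin, of 1.42 and 1.20 from 834.76 and 1111.45 FPKM of mRNA. SERPINH1, the collagen chaperone, was high too, at 1.74 and 1.41. The prolyl hydroxylase subunit P4HA2 was high at 1.83 and 1.60, and PLOD1, a lysyl hydroxylase, was the lowest at 0.33 and -0.39. The translocon, which carries the nascent chains into the ER, had a median of 0.61 (0.50, 0.66) with 7 of 30 high and none low, led by SEC62 (2.02 and 2.36), SEC61G (1.56 and 2.81) and SRP14 (1.95 and 2.11).

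The cargo of this pathway lay lower. Collagens and other matrix proteins had a median of 0.30 (0.30, 0.43) with 4 of 39 high, 10.3%, close to the background. SPARC, a collagen-binding matrix protein, had 330.1 and 893.37 FPKM in RNA-Seq and 1452.86 and 3809.9 in Ribo-Seq (TE 1.72 and 1.65), and THBS1, thrombospondin-1, a TE of 1.75 and 1.53. COL1A1, a chain of type I collagen, had a TE of 0.24 in run 1 and 1.19 in run 2, while its mRNA was at 371.15 and 1328.21 FPKM. COL3A1 had a TE of -0.35 and -0.44 and FN1, fibronectin, of -0.69 and -0.17. COL1A2, the partner chain of COL1A1, had a TE of 0.61 and 1.09. LOXL1, an elastin cross-linking enzyme, was the single low transcript of the list (-1.28 and -1.39).

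Nuclear-encoded subunits of the respiratory chain and ATP synthase had a median of 0.97 (0.88, 1.10), with 29 of 73 high (39.7%), none low and 70 above the median. By complex, in groups drawn up after the values were seen, the median was 1.05 over 34 subunits of complex I, 0.58 over 4 of complex II, 0.79 over 9 of complex III, 1.54 over 10 of complex IV and 0.66 over 15 of ATP synthase. COX7C, a small subunit of complex IV, had 42.76 and 53.42 FPKM in RNA-Seq and 567.1 and 648.14 in Ribo-Seq (TE 3.31 and 3.16). NDUFB2 of complex I had a TE of 3.05 and 2.95 and ATP5G3, a membrane ring subunit of ATP synthase, of 3.0 and 3.34. At the other end lay SDHA, the flavoprotein of complex II, at 0.01 and -0.50, NDUFV1, a catalytic subunit of complex I, at 0.20 and -0.59, and ATP5B, the catalytic subunit of ATP synthase, at 0.08 and 0.07. ATP5B had more mRNA, 430.37 and 365.21 FPKM, than any of the 3 subunits just named at the top.

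Mitochondrial ribosomal proteins were similar, with a median of 0.75 (0.70, 0.74), 22 of 71 high and 1 low. The small subunit had a median of 0.70 over 28 transcripts and the large subunit 0.76 over 43. Below MRPS21, the highest were MRPS14 (2.77 and 2.53), MRPS36 (2.57 and 2.55) and MRPL52 (2.51 and 2.54), whose runs differed by less than the between-run SD. MRPL37 was the low one, with 107.13 and 59.9 FPKM in RNA-Seq and 37.93 and 38.68 in Ribo-Seq (TE -1.92 and -1.08).

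Splicing factors had a median of 0.90 (0.94, 0.69), with 13 of 47 high and none low. HNRNPA2B1, an RNA-binding protein of the nucleus, had 260.49 and 179.86 FPKM in RNA-Seq and 1816.66 and 1098.86 in Ribo-Seq (TE 2.38 and 2.17). SNRPE, a ring protein of the spliceosomal snRNPs, had a TE of 2.23 and 2.13, and SRSF5, an SR protein, of 2.05 and 1.70. The median was 1.08 over 10 SR proteins, 0.99 over 8 snRNP proteins and 0.90 over 17 hnRNPs, and HNRNPUL1 was the lowest of the list at -0.96 and -0.87.

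Glycolytic enzymes had a median of 0.77 (0.67, 0.57) and quartiles at 0.28 and 0.92, with 16 of 17 above the median of all transcripts. PGK1, phosphoglycerate kinase, was high at 2.21 and 1.93, with 126.16 and 196.12 FPKM in RNA-Seq and 779.86 and 1014.76 in Ribo-Seq, and so was the isomerase GPI at 1.19 and 1.15. GAPDH, the most abundant, had 3423.69 and 2793.22 FPKM in RNA-Seq and a TE of 0.52 and 0.60, with a mean that turned to -0.01 when centred on the ratio of sums and to -0.041 when the running median of TE on RNA level was removed. PFKP, a phosphofructokinase, was the lowest at -0.03 and -0.45.

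Proteasome subunits had a median of 0.60 (0.62, 0.55), with 12 of 44 high and 1 low. PSMD7, a lid subunit, was the highest at 2.56 and 2.45, and PSME4, an alternative activator of the proteasome, the low one at -1.43 and -1.17. The core subunits (17 transcripts) and the ATPases (6) had medians of 0.58 and 0.52. The list of chaperonins and cytosolic chaperones had a median of 0.61 (0.63, 0.66) with 3 of 22 high and none low. Its highest member HSPE1, the mitochondrial co-chaperonin, differed between runs (0.96 and 2.53).

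Rab GTPases, the switches of vesicle traffic, had a median of 0.74 (0.72, 0.55) with 7 of 30 high and 1 low. RAB11A, of the recycling endosome, had 22.78 and 26.16 FPKM in RNA-Seq and 215.9 and 222.46 in Ribo-Seq (TE 2.82 and 2.64), and RAB34 was the low one (-1.20 and -1.0). Actin cytoskeleton genes had a median of 0.73 (0.70, 0.71) with 6 of 28 high, and their members lay far apart. TAGLN, transgelin, an actin-binding protein of contractile cells, had 300.26 and 408.53 FPKM in RNA-Seq and 4097.99 and 2594.86 in Ribo-Seq (TE 3.35 and 2.22). ACTB, cytoplasmic beta-actin, lay at the median (-0.09 and -0.07) with 4719.76 and 4432.23 FPKM of mRNA. FLNA, a large actin cross-linker, lay below it at -0.91 and -0.89. In tubulins the median of 0.10 was -0.083 in run 1 and 0.15 in run 2, and 10 of 11 were neither high nor low, TUBG2, a gamma-tubulin, being the low one (-2.58 and -1.36).

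Cytosolic ribosomal proteins were spread widely, with quartiles at -0.01 and 1.44. Their median TE of 0.53 (0.63, 0.39) was above the median of all transcripts but turned to -0.042 when centred on the ratio of sums and to -0.058 when the running median of TE on RNA level was removed, so no direction is given for the family. Of 77 transcripts 24 were high (31.2%) and 3 low (3.90%), and mean TE ran from 4.16 for RPL37 to -2.0 for RPS2. RPL37 had 70.4 and 65.75 FPKM in RNA-Seq and 1536.75 and 1751.01 in Ribo-Seq. RPS2 had 2178.18 and 1494.15 FPKM in RNA-Seq but 661.46 and 559.91 in Ribo-Seq. The 3 low transcripts were RPS2, RPLP0, the stalk protein of the large subunit (-1.74 and -2.02), and RPL12, which sits at the base of the stalk (-1.58 and -1.12).

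For several of them the runs nearly coincided, as the plot of the ribosomal proteins shows. RPL37A differed by 1.01-fold between runs, RPL23 had 2.62 and 2.61, and RPS29 had 3.19 and 3.41. Larger differences were those of RPSA (0.17 and -1.81), whose RNA-Seq level was 52.61 and 201.03 FPKM, and of RPL41 (2.67 and 3.83), the shortest ribosomal protein. RPL41 had 10395.66 FPKM in Ribo-Seq in run 1 and 25590.04 in run 2. The small subunit had a median of 0.57 over 30 transcripts and the large subunit 0.37 over 47.

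The TOP tract, a C at the first base of the mRNA followed by a run of C and T, was looked for at annotated starts in RefSeq (assembly GRCh38.p14), requiring a C at the start and at least 4 more pyrimidines. It was found in 40 of the 52 ribosomal protein transcripts with a single annotated start (76.9%), in 6.72% of the 4333 transcripts of the 7321 that could be read in this way, and in 3.98% of all 22114 single-start promoters of the table. The 4 of highest and the 4 of lowest TE among those 40 are shown. RPL37 and RPS2, the ends of the whole family's range, are not among the 40. Each line gives 5 bases before and 20 from the annotated start, with the pyrimidine run in capitals.
RPL37A (chr2:216498839-216498863, + strand): tcttcCTTTCTgggctcggacctag
RPL41 (chr12:56116628-56116652, + strand): cctttCTCTCggccttagcgccatt
RPL27A (chr11:8682787-8682811, + strand): ccttcCTTTTTCgtctgggctgcca
RPL38 (chr17:74203673-74203697, + strand): tcgttCTTTTTCgtccttttccccg
RPLP0 (chr12:120201092-120201116, - strand): gaggcCCTTCTCTCgccaggcgtcc
RPL12 (chr9:127451387-127451411, - strand): tccggCCTCTCggctttcggctcgg
RPL29 (chr3:51995876-51995900, - strand): cctttCTCTTCCggttctaggcgct
RPS12 (chr6:132814564-132814588, + strand): gaggcCTCTTTCCCTgccgccgccg

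The first 4 had a mean TE of 3.94, 3.25, 3.08 and 2.48, and the last 4 of -1.88, -1.35, -1.10 and -0.82. The run of pyrimidines was 6, 5, 7 and 7 bases long in the first 4 and 9, 6, 7 and 10 in the last 4. A match is a description of these letters at an annotated start, which need not be the start used in these cells. Because the start could be read for only 52 of the 77 ribosomal protein transcripts and 4333 of the 7321, a comparison of TE between transcripts with and without the tract is void.

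Other mRNAs known to carry a TOP tract had a median TE of 0.26 (0.23, 0.17), which turned to -0.31 when centred on the ratio of sums and to -0.21 when the running median was removed, with 3 of 22 high and none low. NAP1L1, a histone chaperone, was high at 2.16 and 1.98, NPM1, nucleophosmin, at 1.06 and 1.37, and BTF3, a partner of nascent chains at the ribosome, at 1.36 and 1.13. EEF1A1, the elongation factor that brings tRNA to the ribosome, had a TE of 0.93 and 0.93 with 3017.97 and 2848.49 FPKM of mRNA, and VIM, vimentin, of 0.89 and 0.91. EEF2, the translocation factor, had -0.18 and -0.40, TPT1 -0.19 and -0.65, and PABPC1, the poly(A)-binding protein, -1.83 and -0.90. Among the 12 transcripts of this list with the tract at a single annotated start, NAP1L1 had the highest and NACA the lowest mean TE. NACA had a TE of -0.42 and -0.63, and both starts are shown. Each TE is that of the isoform with the longest coding sequence, and whether this isoform opens at the start shown was not tested. The pair is a description and no comparison by tract is drawn from it.
NAP1L1 (chr12:76084666-76084690, - strand): tgggtCTTTTTTagcgccatctgct
NACA (chr12:56725280-56725304, - strand): tcggtCTTTCTgccgccatcttggt

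Initiation factors had a median TE of 0.39 (0.31, 0.37) with 6 of 37 high and none low. The high ones were EIF5A (3.48 and 2.89), EIF2S1, the alpha subunit of eIF2 that stress kinases phosphorylate (2.23 and 2.07), EIF1AX, EIF1, EIF3M and EIF2S2. EIF1, which guards start codon choice, had 221.27 and 177.96 FPKM in RNA-Seq and 1137.41 and 977.97 in Ribo-Seq (TE 1.94 and 2.01). The subunits of eIF3 had a median of 0.29 over 12 transcripts, and those of eIF2 and its exchange factor eIF2B 0.082 over 8, although EIF2S1 and EIF2S2 were high. The aminoacyl-tRNA synthetases had a median of 0.27 (0.20, 0.34) with 2 of 23 high, AIMP1, a scaffold of the synthetase complex, being the highest (1.88 and 2.07).

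Genes of cell division were close to the median transcript. Mitosis genes had a median of 0.22 (0.22, 0.18) with 1 of 31 high and none low, and replication genes 0.19 (0.24, 0.16) with 1 of 34 high and none low. The high ones were SPC24, a kinetochore protein (2.08 and 1.05), and GINS2, of the replicative helicase (1.05 and 1.5). MKI67, the proliferation antigen, was the lowest mitosis gene at -0.77 and -0.48. RPA3 differed strongly between runs (0.22 and 2.61), since its Ribo-Seq level was 13.58 FPKM in run 1 and 54.88 in run 2 while its RNA-Seq level was 8.68 and 6.6.

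Cyclins, their kinases and inhibitors had a median of -0.27 (-0.5, -0.20), with none of 24 high and 5 low. CCNI, an atypical cyclin, was the lowest, with 96.51 and 86.17 FPKM in RNA-Seq and 17.57 and 10.27 in Ribo-Seq (TE -2.88 and -3.51). CCNL2 and CCNL1, cyclins of splicing kinases, were low too (-1.98 and -2.98, -2.27 and -1.37), as were RBL2, an RB relative, and CDKN2C, an inhibitor of CDK4 and CDK6. CCND1, cyclin D1, lay above the median at 0.63 and 0.74 and CDK4 below it at -0.50 and -0.73. CDKN1A, p21, was near it at 0.25 and -0.07, and CDKN1B, p27, had 2.03 in run 1 and 0.13 in run 2.

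The lowest list median, -1.78 (-1.21, -1.87), was that of mRNAs regulated by uORFs or belonging to the integrated stress response, in which stress raises the translation of a few mRNAs that are held down in unstressed cells. Of 12 transcripts 6 were low and 1 was high. ATF4, the transcription factor at the centre of this response, had 210.77 and 130.7 FPKM in RNA-Seq and 65.65 and 13.09 in Ribo-Seq (TE -2.11 and -3.77). ATF5, a related factor, had 36.51 and 22.38 FPKM in RNA-Seq and 3.06 and 3.77 in Ribo-Seq (TE -4.0 and -3.02).

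PPP1R15A, which recruits the eIF2 phosphatase, had a TE of -1.77 and -2.29, and DDIT3, the factor CHOP, of -1.43 and -2.06. SMCR7L (-1.93 and -3.01) and IBTK (-1.94 and -1.68) completed the 6. IFRD1 missed the rule in run 1 (-0.99 and -3.22), and PPP1R15B, the constitutive partner of the eIF2 phosphatase, had -0.76 and -0.86. The high one was EIF1, whose start codon lies in a poor context. Ribo-Seq counts covered the main coding sequence only, so footprints on uORFs are not in these values.

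Polyamine genes, several of which have control elements in their mRNAs, had a median of -1.11 (-1.10, -1.06), with 3 of 8 low and all 8 below the median. AZIN1, the antizyme inhibitor, had a TE of -1.23 and -2.29, SRM, spermidine synthase, of -1.39 and -1.20, and SMOX, spermine oxidase, of -1.31 and -1.18. ODC1, ornithine decarboxylase, the first enzyme of the pathway, had 92.37 and 65.4 FPKM in RNA-Seq and 62.99 and 43.9 in Ribo-Seq, a TE of -0.98 and -1.02 that fell just short in run 1. OAZ1, the antizyme, which is made by frameshifting, had -1.65 and -0.81, and AMD1, the decarboxylase of S-adenosylmethionine, -0.83 and -0.59.

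Of 10 selenoproteins, which read an in-frame UGA as selenocysteine, 3 were low and 2 high, with a median of -0.22 (-0.051, -0.44). GPX4, the lipid peroxide reductase, had 119.88 and 148.03 FPKM in RNA-Seq and 80.32 and 99.24 in Ribo-Seq (TE -1.0 and -1.02), and GPX1 a TE of -0.87 and -0.71. SEPHS2 and SEPN1 were low, and SELS (3.08 and 2.04) and EPT1 (1.60 and 1.19) high. Among 5 mRNAs with iron-responsive elements, whose median was -0.26 (-0.12, -0.40), EPAS1, the hypoxia factor HIF-2 alpha, was low with 113.25 and 118.26 FPKM in RNA-Seq and 25.18 and 30.08 in Ribo-Seq (TE -2.59 and -2.42), as was CDC42BPA. TFRC, the transferrin receptor, whose elements control mRNA stability, had a TE of 1.05 and 0.96.

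ZNF zinc finger factors were the largest family of low TE, with a median of -0.81 (-0.72, -0.71), 23 of 72 low (31.9%) and 2 high. ZNF358 had 29.78 and 16.75 FPKM in RNA-Seq and 2.97 and 3.41 in Ribo-Seq (TE -3.75 and -2.74), and ZNF76 and ZNF532 were low at -2.10 and -3.44 and at -2.53 and -2.41. The 2 high ones, ZNF706 (2.98 and 2.94) and ZNF207 (2.14 and 2.22), were steady between runs. Of 213 ZNF genes in the table, 72 reached the RNA-Seq minimum. Solute carriers, the membrane transporters of small molecules, had a median of -0.17 (-0.15, -0.29) over 119 transcripts, with 6 high and 14 low (11.8%), close to the background of 13.3%. SLC5A3, the myo-inositol transporter, was the highest and SLC35E2B the lowest, at a mean TE of 1.76 and -3.34.

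Among the remaining lists, lysosomal proteins had a median of 0.39 (0.31, 0.52) with 4 of 28 high, led by CTSL1, cathepsin L (1.76 and 1.57), and sterol synthesis genes 0.49 (0.47, 0.51) with 2 of 22 high. In the latter the enzyme MSMO1 was the highest (1.33 and 1.39) and the transcription factor SREBF2 the low one (-1.25 and -1.43), and the median turned to -0.079 when centred on the ratio of sums. Immediate early genes had a median of 0.37 (0.46, 0.28) with CTGF high (1.42 and 1.06), and ZFP36, a decay factor for AU-rich mRNAs, had -3.13 in run 1 and -0.79 in run 2. JUN had a TE of 0.55 and 0.28, which on average turned to -0.16 when centred on the ratio of sums, and MYC lay at -0.10 and 0.04. The 10 NF-kB and cytokine genes that reached the minimum had a median of -0.085 (0.012, -0.29), which turned to 0.15 when the running median was removed, with TNFRSF12A, the TWEAK receptor, high.

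Families were also read off the first letters of gene symbols, for stems shared by at least 12 transcripts. This grouping was chosen after the values were seen and is a description only. The highest medians were those of COX (1.14, 19 transcripts), MRPL, MRPS, PSMD and ARL (0.66, 12 transcripts). Low medians were those of ZDHHC, the palmitoyl transferases (-1.17, 6 of 13 low), ZBTB, a class of zinc finger factors (-0.95, 6 of 12 low), and TBC, activators of Rab GTPase hydrolysis (-0.88, 7 of 18 low). ANKRD (-0.86), USP, the ubiquitin proteases (-0.81), and KDM, the histone demethylases (-0.73), also lay low.

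Between the runs Pearson's r was 0.934 for log2 Ribo-Seq, 0.939 for log2 RNA-Seq and 0.871 for TE. Between-run SDs were 0.511 for Ribo-Seq and 0.362 for RNA-Seq, against 0.397 for TE, so the runs differed less in TE than in Ribo-Seq. The SD over transcripts was wider for the levels than for TE, at 1.99 for log2 Ribo-Seq and 1.47 for log2 RNA-Seq in both runs. For abundant transcripts of 50 FPKM or more r was 0.885, and for those of 5 to 10 FPKM 0.816.

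MIF, a secreted cytokine, disagreed most, by 85.4-fold. It had 299.88 FPKM in RNA-Seq and 34.63 in Ribo-Seq in run 1, a TE of -3.54, but 100.64 and 1007.95 FPKM in run 2, a TE of 2.88. The split followed the run in the other conditions as well, with a TE of -2.34 in Q and -2.76 in preS, both of run 1, and of 2.11 in S and 1.98 in Tr, both of run 2. In all 3 columns of run 1 the RNA-Seq level was 271.3 to 313.69 FPKM and the Ribo-Seq level 34.63 to 79.16, and in run 2 they were 99.2 to 104.69 and 505.09 to 1007.95. The columns of the 2 runs did not overlap in either assay, so the mean TE of MIF describes neither run.

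ESR1, the estrogen receptor, had a TE of 3.69 in run 1 and 0.81 in run 2, with 19.22 and 101.87 FPKM in RNA-Seq and 331.6 and 242.33 in Ribo-Seq. The inducible RAS construct of the study carries part of this receptor, and reads of the receptor gene and of the construct were not separated here. In Tr the RNA-Seq level of ESR1 was 1.0 FPKM and the Ribo-Seq level 8.84, and in the other columns RNA-Seq lay between 9.31 and 144.22 FPKM. Of the 10 largest disagreements, MT1X, a metallothionein, RANGRF and ALG14 lay, like MIF, on opposite sides of the median in the 2 runs. MT1X was at -1.32 in run 1 and 2.22 in run 2, RANGRF at -2.44 and 0.64, and ALG14 at -2.75 and 0.28. The other 5 were FAM89B, C11orf48, DCAF16, FAM120AOS and AC004223.1, and FAM89B was low in both runs all the same (-4.73 and -1.72).

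The TE order of proliferating cells was kept to a large extent in the 4 other conditions, which share no library with the proliferating columns but share their runs. Of the 734 high transcripts, 75.3% were at least 2-fold above the median in Q, 72.8% in preS, 79.6% in S and 90.1% in Tr, where 12.3, 13.3, 15.7 and 15.2% of all 7321 were. These made up 61.3, 54.9, 50.9 and 59.5% of the transcripts that far above the median in those conditions. Of the 972 low transcripts, 81.5, 70.6, 78.0 and 86.9% were at least 2-fold below, against 16.2, 16.2, 17.7 and 18.3% of all. Pearson's r with the TE of proliferating cells of run 1 was 0.895 for Q, 0.824 for preS, 0.779 for S and 0.846 for Tr, and with that of run 2 it was 0.849, 0.764, 0.857 and 0.940. In each of the 4 it was higher with the proliferating cells of the same run. At most 1 high transcript in any condition was at least 2-fold below the median there.

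Among the named transcripts, B4GALT2 lay between -4.96 and -3.61 in the other conditions and ATF4 between -3.44 and -2.11. RPL37A had 2.82 in Q and 3.71 in preS, against 3.93 in proliferating cells of run 1. In run 2 RPL37A had 2.75 in S and 4.16 in Tr, against 3.95 in proliferating cells. HIST1H2AC, the highest in proliferating cells, had 5.10 in Q, 3.90 in preS and 4.69 in Tr but 0.56 in S, where its RNA-Seq level was 39.23 FPKM and its Ribo-Seq level 73.44. HIST1H1C likewise had -0.45 in S, with 88.23 FPKM in RNA-Seq and 82.2 in Ribo-Seq. In all 4 histones the RNA-Seq level was higher in S than in proliferating cells of run 2 and the Ribo-Seq level lower, with 1 library for each.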

How the data were processed

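RNA-Seq of poly(A)-selected RNA and Ribo-Seq of gel-purified monosome footprints from cycloheximide-treated BJ cells were analysed. Per the submitters' notes and the study's methods, the authors aligned reads with Bowtie (genome build hg19 in the labels) to 1 transcript per gene of Ensembl annotation, the one with the longest coding sequence, and kept uniquely mapped reads. The deposited values are FPKM, which the authors computed over the whole transcript for RNA-Seq and over the coding sequence for Ribo-Seq, setting values under 1 to 1. The RNA-Seq reads of run 2 were single-end and those of run 1 paired-end per the study's sample list. An isoform other than the chosen one, or an overlapping gene, alters both values. The study states the reads of each library; they were not used here, and since the table holds no counts per transcript, no counting interval is given.

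TE was computed with no pseudocount (Python 3.11.15, numpy 2.4.6, pandas 2.3.3). The scripts were tested on simulated data. Named genes were the 12 highest and 12 lowest by mean TE among those high or low with Ribo-Seq above the floor in both runs, the highest and lowest of each list, a fixed set of 36 genes (SLC35A4, FTH1, FTL and HIST1H4C of these had no row), and the 10 with the largest run difference. Other genes were named after their values were seen. The transcripts, lists and rules were chosen with earlier results of these data known. Symbols were matched to RefSeq (GRCh38.p14) promoters for 6112 of the 7321 transcripts. Alternatives were another pseudocount, RNA-Seq minimum, centring, floor and RNA-level trend, and each run alone. Some items are not reported here.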

Additional observations from a re-analysis of the deposited data

How the results depend on the processing

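No paired analysis was possible because the results come from no test and the C12 column pools replicates 1 and 2; TE is already taken within each run. Centring on the ratio of summed FPKM left 237 high and 1980 low transcripts and 11 list medians above 0. It turned 12 list medians, those of cytosolic ribosomal proteins (-0.042), replacement histones (-0.048) and sterol genes (-0.079) among them, and the TE of GAPDH (-0.01), JUN (-0.16), H3F3B (-0.078), MT1X (-0.12) and CDKN1A (-0.48). Removing the running median of TE on RNA level turned the medians of cytosolic ribosomal proteins (-0.058), other TOP mRNAs (-0.21), tubulins (-0.29) and NF-kB genes (0.15), and GAPDH (-0.041) and CDKN1A (-0.31). A 3-fold rule left 235 high and 423 low. With 1 run left out, 1000 to 1061 were high, 1295 to 1380 low, and 23 list medians lay above 0 either way. In run 1 alone MT1X (-1.32, against 2.22 in run 2), PLOD1 (0.33) and SDHA (0.015) changed side of the median, and in run 2 alone MIF (2.88), RANGRF (0.64, against -2.44 in run 1), ALG14 (0.28, against -2.75), MYC (0.035) and CDKN1A (-0.069). A pseudocount of 1 FPKM and leaving out floored transcripts kept the direction of all 31 list medians, and an RNA-Seq minimum of 10 FPKM or none that of 30, all but NF-kB genes (0.16 and 0.12). Low Ribo-Seq values limit the low end.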
